A study of Mus musculus with 16 samples.

Results

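The genes described here are 37 antiviral genes that type I interferons (IFNs) induce in mouse cells, listed by symbol with earlier results of these data known, without the GTPases of the Gbp and Irg families. All 37 were found among the 47069 genes of the deposited count table, and all 37 were among the 13211 genes that passed the filter on low counts. Bone marrow-derived macrophages (BMMs) grown from C57BL/6 mice of 8 to 10 weeks were primed overnight with IFNγ at 10 ng/mL and activated for 1 hr with LPS at 100 ng/mL together with immune complexes of IgG and ovalbumin (LPS/ICs). One group of libraries came from cells that received DAPT at 25 μM, a γ-secretase inhibitor (GSI) that blocks the cleavage of Notch receptors and of other γ-secretase substrates, and the other from cells that received the vehicle DMSO at 0.01%. Each group had 2 replicates, each sequenced in 4 runs that were summed to 1 library. All 4 libraries therefore came from cells that had IFNγ, LPS and ICs, and neither resting nor unprimed cells were part of the comparison. The paper's general methods give DAPT or DMSO overnight before activation, whereas some of its figure legends give a shorter pretreatment. Whether a difference was already present before LPS/ICs were added could not be told from these libraries. The comparison asks how γ-secretase inhibition changed the mRNA levels of activated macrophages, and it cannot separate Notch from the other substrates of the enzyme.

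Type I IFNs, IFN-β and the IFN-α family, are secreted by cells that sense microbial nucleic acids or LPS. In macrophages, TLR4 reaches the Ifnb1 gene through the adaptors Tram and Trif, the kinases Tbk1 and Ikbke and the transcription factor Irf3. Secreted IFN-β binds the receptor chains Ifnar1 and Ifnar2, and the kinases Jak1 and Tyk2 then activate the complex ISGF3, which holds Stat2 and Irf9. ISGF3 binds the IFN-stimulated response element (ISRE), whereas IFNγ acts on the gamma-activated site (GAS). Many genes of the antiviral program answer to both kinds of IFN, so that a macrophage primed with IFNγ carries some of their mRNA before LPS is added.

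The DMSO libraries totalled 42694655 and 56932059 counts and those of GSI 48483661 and 49511733. Levels are given in CPM, the count of a gene for every 1000000 counts of its library after TMM adjustment, and the limit that a count of 0 allows was between 0.0527 and 0.0703 CPM. The antiviral genes were far above this limit, with 470 to 74050 counts per library and none under 10 counts in any library, so that the filter removed none of them. The 2 replicates of a group differed by at most 18.4% of the lower value for any of the 37 genes in DMSO and by at most 23.4% in GSI. Markers of macrophages were abundant, with 12657 and 12871 CPM in sum over 10 genes in the DMSO libraries and 9868 and 10778 CPM in the GSI libraries. Of the other lineages, marker genes of neutrophils summed to at most 1.43 CPM, those of T, NK and B cells to at most 0.165 CPM, and those of fibroblasts and erythroid cells to at most 0.162 CPM. The Notch target Hes1 had 5, 2, 1 and 5 counts in DMSO replicates 1 and 2 and GSI replicates 1 and 2, so the action of the inhibitor could not be checked from its mRNA.

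Most of the antiviral genes were higher in the presence of GSI, by modest factors. With an FDR under 0.05 (edgeR's quasi-likelihood test, adjusted over all genes tested), 28 of the 37 genes rose, 2 fell and 7 did not pass the test. The background was wide, since 40.8% of all genes tested passed, made up of 19.0% of all genes tested that were higher and 21.9% that were lower with GSI. The 28 genes that rose are 75.7% of the set, against 19.0% of all genes tested, and against 22.6% of the 7581 genes that averaged at least 10 CPM, as the antiviral genes did. The 2 genes that fell compare with backgrounds of 21.9% and 25.4%. The values of the 2 groups did not overlap in 33 of the 37 genes, a pattern found in 70.6% of all genes tested. The median log2 fold change of the 37 genes was 0.41, with an interquartile range of 0.19 to 0.64, while the median of all genes tested was 0.01 and their interquartile range ran from −0.25 to 0.24. Of the 37, 24 lay above the 75th percentile of all genes tested and 1 lay below the 25th. The genes that rose did so by a median of 1.41-fold. Only Isg20 also exceeded an absolute log2 fold change of 1.5, a threshold that 0.742% of all genes passed together with the FDR in the direction of higher expression. The 37 genes together took 14822 and 14776 CPM in the DMSO libraries and 18799 and 18287 CPM in the GSI libraries. Whether more cells carried these transcripts or each cell carried more of them cannot be told apart in bulk RNA.

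**Figure D1:**
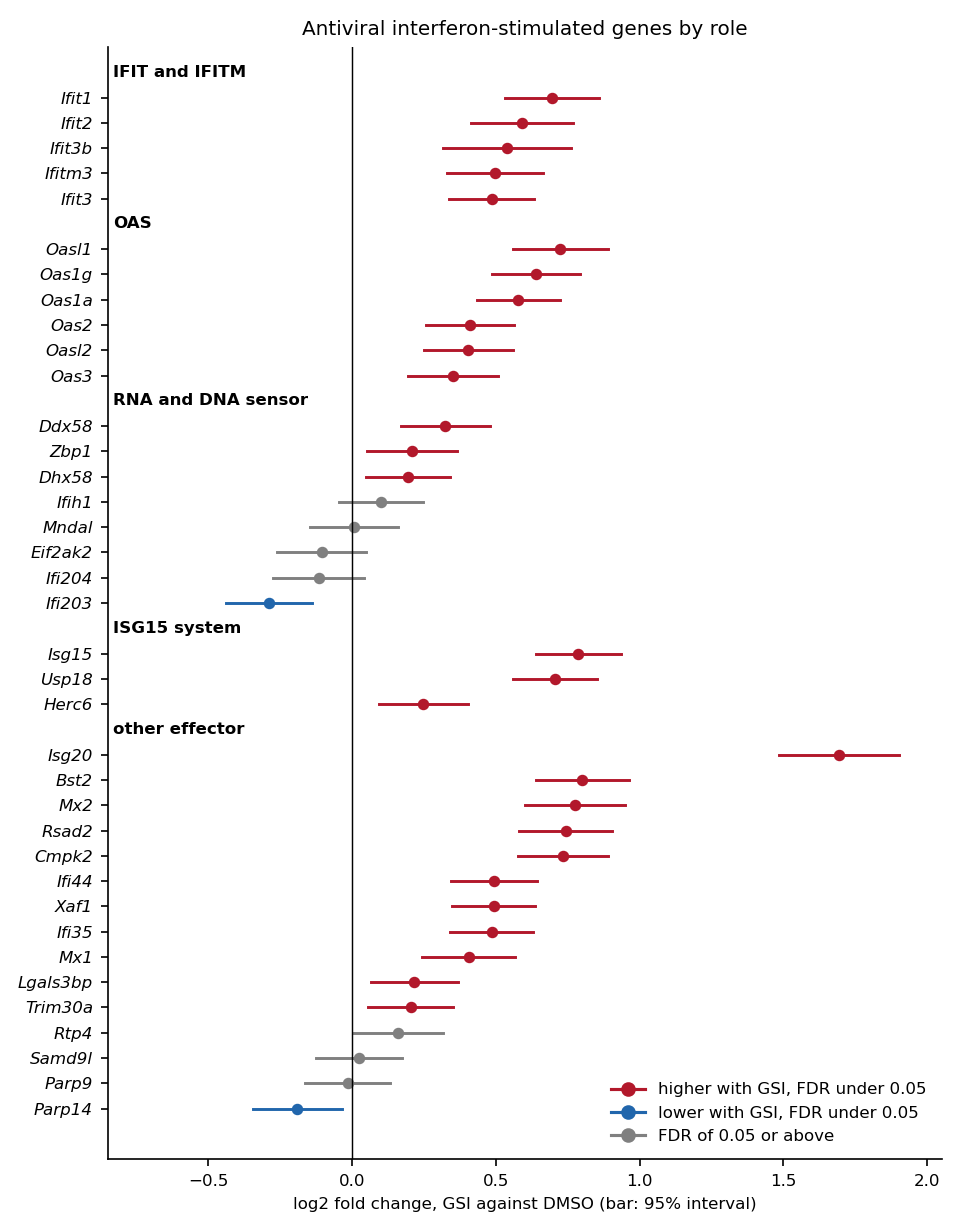
Log2 fold change (GSI against DMSO, x axis) of each of the 37 antiviral genes, grouped by role, with bars for the 95% confidence interval of the edgeR fit and colours for the result of the test. The OAS, IFIT and ISG15 groups lie entirely to the right of 0, Isg20 lies farthest right at 1.69, and the sensors straddle 0 with Ifi203 at −0.29.

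The promoters of some of these genes carry letters of the element through which ISGF3 acts, and examples are shown because ISGF3 is the complex that type I IFNs activate. RefSeq windows of 300 bases (GRCm38.p6, 250 bases before and 50 after the annotated start) were at hand for 27 of the 37 genes. The ISRE core was searched on both strands as 2 copies of GAAA with any 2 bases between them, which read TTTC on the other strand, and it was found in 16 of the 27 genes, 59.3% (95% Wilson interval 40.7% to 75.5%), against 3.99% of 27025 genes with such windows. The longer form, in which CT follows the second copy, was found in 33.3% of the 27 and in 0.303% of all. The GAS letters TTCNNNGAA were found in 7 of the 27, 25.9% (13.2% to 44.7%), against 9.55% of all genes. The windows below are read along the strand of the gene, and capitals mark the motif. Ifit1 holds a pair of cores in one window, and the neighbouring genes Oas1a and Oas1g have the same 30 bases around theirs, as do Ifit3 and Ifit3b. The intervals count such copies as separate genes of a chosen list, so they may be too narrow.

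Ifit1, chr19:34640775-34640804, plus strand: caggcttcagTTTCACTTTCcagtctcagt
Ifit1, chr19:34640794-34640823, plus strand: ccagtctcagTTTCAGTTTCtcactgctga
Isg15, chr4:156200871-156200900, minus strand: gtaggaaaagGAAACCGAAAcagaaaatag
Bst2, chr8:71537577-71537606, minus strand: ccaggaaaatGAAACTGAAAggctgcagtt
Rsad2, chr12:26456553-26456582, minus strand: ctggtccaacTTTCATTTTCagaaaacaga
Oas1a, chr5:120907520-120907549, minus strand: tcgggaaatgGAAACTGAAAatctacttcc
Oas1g, chr5:120887606-120887635, minus strand: tcgggaaatgGAAACTGAAAatctacttcc
Ifit3, chr19:34583363-34583392, plus strand: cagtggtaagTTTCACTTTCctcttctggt
Ifit3b, chr19:34607759-34607788, plus strand: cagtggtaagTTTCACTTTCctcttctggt

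The same core stood in the windows of genes that fell or did not pass the test. Ifi203, which fell, and its neighbour Mndal, which did not pass, share 30 identical bases around it, and Eif2ak2 and Ifih1, which also did not pass, carry it just after the annotated start. Isg20, the gene that rose most, had no ISRE core in its window but had the GAS letters.

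Ifi203, chr1:173942508-173942537, minus strand: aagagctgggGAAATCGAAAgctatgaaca
Mndal, chr1:173880204-173880233, minus strand: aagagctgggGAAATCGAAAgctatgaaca
Eif2ak2, chr17:78882535-78882564, minus strand: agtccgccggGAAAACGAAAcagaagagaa
Ifih1, chr2:62646206-62646233, minus strand: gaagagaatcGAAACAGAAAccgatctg
Isg20, chr7:78913341-78913369, plus strand: ctggggagggTTCTTGGAAtttttccttt

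Among the 16 genes with the ISRE core, 12 rose, 1 fell and 3 did not pass the test, with a median log2 fold change of 0.49. Among the 11 genes with a window but no core, 10 rose and 1 did not pass, with a median of 0.49 as well. The 10 genes without a window had 6 that rose, 1 that fell and 3 that did not pass, with a median of 0.20. The presence of the letters near the start thus did not separate the genes that rose from the others in this set, and a match is a description of the sequence only.

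The 3 genes of the set that belong to the ISG15 system were all higher, beside 19.0% of all genes tested. Isg15, a small ubiquitin-like protein that is joined to viral and host proteins and is also secreted, measured 320 and 317 CPM in the DMSO libraries and 558 and 542 CPM in the GSI libraries. The replicates of each group lay close together and the groups were well apart, at 319 ± 2.0 CPM for DMSO and 550.2 ± 11.6 CPM for GSI (SD, n = 2), a log2 fold change of 0.79 (SE 0.0705, FDR = 2.34e-08). Usp18, the protease that removes Isg15 from its targets and also sits on Ifnar2 to shut off the receptor, measured 159 and 153 CPM in DMSO and 248 and 261 CPM in GSI. Its log2 fold change was 0.71 (SE 0.0698, FDR = 9.65e-08). Herc6, the main ligase that attaches Isg15 in mice, rose less, by 0.25 (FDR = 0.0111), and did not pass without DMSO replicate 2 (0.16). Outside the set, Ube2l6, the enzyme that conjugates Isg15, rose by 0.54 (FDR = 2.92e-06), and Uba7, which activates it, gave 0.17 (FDR = 0.0870).

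The 4 IFIT genes of the set and Ifitm3 rose, 5 of 5, with log2 fold changes between 0.49 and 0.69 and a median of 0.54, beside 19.0% of all genes tested that rose. The relatives Ifitm1, Ifitm2 and Ifit1bl1, which are outside the set, fell by 0.79, 0.35 and 0.61 on the log2 scale, Ifitm6 rose by 0.36 and Ifit1bl2 did not pass (0.44). IFIT proteins bind viral RNA whose cap marks it as foreign, and IFITM proteins block the fusion of viruses with endosomal membranes. Ifit1 measured 437 and 413 CPM in DMSO and 733 and 642 CPM in GSI, so that the lower GSI library was still well above the higher DMSO library. Its log2 fold change was 0.69 (SE 0.0784, FDR = 5.42e-07). Ifitm3 had the highest level of the 37 genes per kilobase of transcript, 1470 CPM per kb averaged over all libraries. It measured 768 and 885 CPM in DMSO and 1140 and 1194 CPM in GSI, without overlap, and the log2 fold change was 0.50 (SE 0.0796, FDR = 4.28e-05).

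Ifit2, Ifit3, Ifit3b and Ifit1 follow one another on chromosome 19 between 34550694 and 34650009 (GRCm38, GENCODE M21) and rose by 0.59, 0.49, 0.54 and 0.69 on the log2 scale in that order. Ifit3 and Ifit3b are near-identical copies, so their separate counts are uncertain: 41.1% of the 75-base stretches of the exons of Ifit3 also occur in Ifit3b, and 35.7% of those of Ifit3b occur in Ifit3. Their sum was 275 and 265 CPM in DMSO and 392 and 366 CPM in GSI, a ratio of means of 1.4. The sum moved like the members of the pair, whichever copy the reads came from.

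All 6 OAS and OAS-like genes of the set rose, with log2 fold changes between 0.35 and 0.72 and a median of 0.49 (19.0% of all genes tested rose). OAS enzymes are activated by viral RNA and make short oligoadenylates that switch on RNase L. Oasl1, an OAS-like protein which in mice restrains the translation of Irf7, showed the largest change of these 6. It measured 664 and 768 CPM in DMSO and 1180 and 1186 CPM in GSI, with the 2 GSI libraries almost equal (log2 fold change 0.72, SE 0.0793, FDR = 3.67e-07). Oasl2, its neighbour on chromosome 5, rose by 0.40. A second cluster on that chromosome holds Oas2, Oas3, Oas1g and Oas1a between 120730333 and 120907521, which rose by 0.41, 0.35, 0.64 and 0.58.

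Oas1a and Oas1g share much of their exons, 47.6% of the 75-base stretches of Oas1a and 36.9% of those of Oas1g, so the split between them is uncertain. Their sum was 185 and 191 CPM in DMSO and 280 and 287 CPM in GSI, a ratio of means of 1.51. In Oas1a alone the values were 142 and 145 CPM against 210 and 218 CPM. Both the pair and its sum stood apart between the groups by more than the replicates differed.

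Of the remaining 15 effectors, 11 were higher, 1 was lower and 3 did not pass the test, where 19.0% of all genes tested were higher and 21.9% lower. Isg20, an exonuclease that degrades RNA, was weakly expressed and changed most of the 37 genes. It measured 10.9 and 11.7 CPM in DMSO and 40.5 and 32.8 CPM in GSI, a fitted 3.23-fold rise (log2 fold change 1.69, SE 0.0994, FDR = 7.42e-11). The 2 GSI libraries differed from each other more than the DMSO libraries did, and both were well above them. Among the genes averaging at least 10 CPM, Isg20 ranked 13 by size of increase.

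Bst2, also called tetherin, holds budding virions at the cell surface. It measured 422 and 435 CPM in DMSO and 695 and 797 CPM in GSI (log2 fold change 0.80, SE 0.0782, FDR = 7.82e-08). Rsad2, or viperin, makes a nucleotide analogue that ends viral RNA chains, and it measured 668 and 746 CPM in DMSO and 1220 and 1148 CPM in GSI (0.74, SE 0.0776, FDR = 1.92e-07). Cmpk2, a mitochondrial nucleotide kinase, lies head to head with Rsad2 on chromosome 12, with 12751 bases between them. It measured 143 and 136 CPM in DMSO and 247 and 217 CPM in GSI (0.73, SE 0.0757, FDR = 1.65e-07). This pair of neighbours changed by nearly the same factor although their levels differed.

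The Mx genes encode dynamin-like GTPases that trap viral nucleocapsids, and laboratory strains such as C57BL/6 carry defective alleles of Mx1. Mx2, which the annotation calls a polymorphic pseudogene, measured 19.8 and 22.8 CPM in DMSO and 36.4 and 36.7 CPM in GSI (log2 fold change 0.78, SE 0.0838, FDR = 3.10e-07). Mx1 rose by 0.41 (SE 0.0770, FDR = 0.000269). Both groups of libraries were apart in both genes.

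Ifi44 and Xaf1, the latter a partner of the apoptosis inhibitor XIAP, both rose by 0.49, as did Ifi35. Lgals3bp, a secreted glycoprotein and one of the most abundant mRNAs of the set, measured 1252 and 1273 CPM in DMSO and 1435 and 1500 CPM in GSI, a rise of 0.22 (SE 0.0730, FDR = 0.0223). Trim30a, an inhibitor of NF-κB signaling by TLRs, rose by 0.20 (SE 0.0705, FDR = 0.0260). The calls of these last 2 genes depended on single libraries. Without DMSO replicate 1, DMSO replicate 2 or GSI replicate 2, Lgals3bp gave 0.20, 0.23 and 0.19 and Trim30a 0.23, 0.18 and 0.20, in no case with an FDR under 0.05.

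Parp14, an ADP-ribosyltransferase with macrodomains, was the effector that fell, with 1333 and 1266 CPM in DMSO and 1164 and 1113 CPM in GSI. The log2 fold change was −0.19 (SE 0.0737, FDR = 0.0447), and it did not pass without DMSO replicate 1 (−0.15), without DMSO replicate 2 (−0.23) or without GSI replicate 2 (−0.16). Its neighbour Parp9 gave −0.01 (95% interval −0.16 to 0.13) and the antiviral Samd9l gave 0.02 (−0.12 to 0.17), with overlapping groups in both. Rtp4, an IFN-induced chaperone, gave 0.16 (0.01 to 0.32, FDR = 0.0906) with groups that did not overlap. With a single library left out, Rtp4 gave 0.09 to 0.23. For these 3 genes that did not pass, the intervals do not reach the median rise of the set, 0.41.

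**Figure D2:**
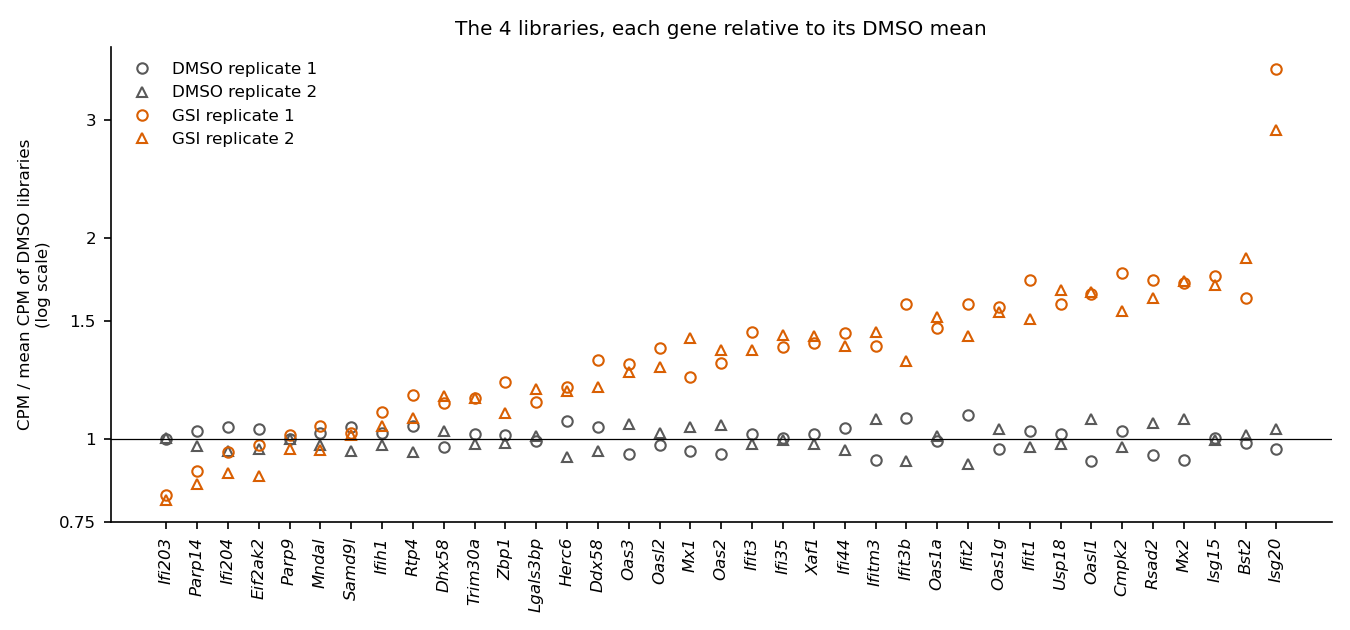
CPM of each of the 37 antiviral genes in each of the 4 libraries, divided by the mean CPM of that gene in the DMSO libraries (log axis), with genes ordered by fold change, circles for replicate 1 and triangles for replicate 2. The GSI points (orange) leave the DMSO points (grey) step by step from left to right, Isg20 stands highest, and Ifi203 and Parp14 at the left lie under the DMSO points.

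Of the 8 sensors of nucleic acids, 3 were higher, 1 was lower and 4 did not pass the test, with a median log2 fold change of 0.05, beside 40.8% of all genes tested that passed in either direction. In sum they measured 3581 and 3462 CPM in the DMSO libraries and 3573 and 3363 CPM in the GSI libraries, so that the groups overlapped. Ddx58, or RIG-I, the cytosolic receptor of viral RNA ends, measured 152 and 140 CPM in DMSO and 192 and 175 CPM in GSI and rose by 0.32 (SE 0.0737, FDR = 0.00142). Ifih1, or MDA5, the receptor of long RNA duplexes, gave 0.10 (95% interval −0.05 to 0.25). Dhx58, or LGP2, the regulator of both, rose by 0.19 (SE 0.0700, FDR = 0.0313), and Zbp1, which binds Z-form nucleic acids, rose by 0.21 (SE 0.0750, FDR = 0.0317). The call of Dhx58 was lost without DMSO replicate 1 (0.15), DMSO replicate 2 (0.23) or GSI replicate 2 (0.18), and that of Zbp1 without DMSO replicate 1 (0.23), DMSO replicate 2 (0.19) or GSI replicate 1 (0.13). Eif2ak2, the kinase PKR that stops translation when it binds viral RNA, gave −0.11 (−0.26 to 0.05).

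The 3 DNA sensors of the set that belong to the PYHIN family lie near one another on chromosome 1 between 173747293 and 173942672. Ifi203 fell, with 828 and 830 CPM in DMSO and 684 and 672 CPM in GSI, and its groups were clearly apart (log2 fold change −0.29, SE 0.0715, FDR = 0.00282). Ifi204 gave −0.12 (95% interval −0.27 to 0.04) and Mndal 0.01 (−0.15 to 0.16). The annotated spans of Mndal and Ifi203 overlap on one strand, and 5.71% of the 75-base stretches of Ifi203, 13.2% of those of Ifi204 and 11.1% of those of Mndal also occur in other genes, so these 3 counts are less certain than those of single-copy genes. The same limit holds for Herc6 and Rtp4, with 11.3% and 10.5% of such stretches found in other genes.

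The genes spanned a wide range of levels. Per kilobase of transcript, the most abundant were Ifitm3, Bst2, Isg15, Lgals3bp and Oasl1, with 1470, 650.2, 575, 479 and 364 CPM per kb averaged over all libraries. The least abundant were Ifit3b, Mx2 and Isg20, with 7.16, 8.00 and 12.9 CPM per kb. Isg20 and Bst2, at opposite ends of this scale, had the largest log2 fold changes, 1.69 and 0.80, whereas the abundant Lgals3bp rose by 0.22.

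**Figure D3:**
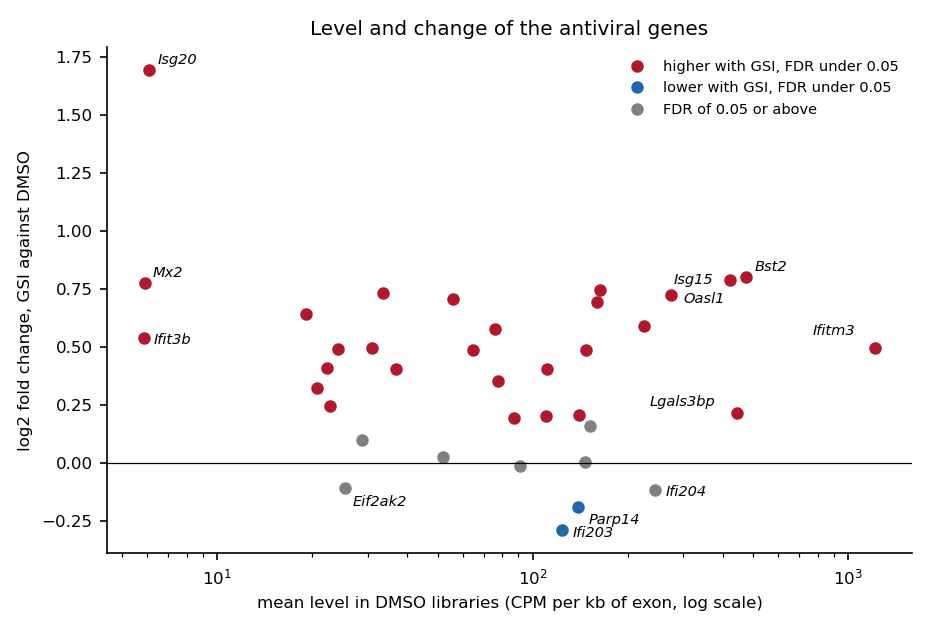
Mean level of each antiviral gene in the DMSO libraries (CPM per kb of exon, log axis) against its log2 fold change (GSI against DMSO), coloured by the result of the test. Genes that rose are found from 5.85 CPM per kb (Ifit3b) to 1219 CPM per kb (Ifitm3), Isg20 stands alone at 1.69, and the genes that fell are Parp14 at 140 and Ifi203 at 124 CPM per kb.

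Upstream of the antiviral genes, the mRNA of the ligand was higher with GSI. Ifnb1 measured 10.2 and 13.1 CPM in DMSO (438 and 744 counts) and 27.1 and 27.9 CPM in GSI (1308 and 1377 counts), a log2 fold change of 1.23 (SE 0.102, FDR = 7.51e-09). Ifna2 had 12 and 13 counts in DMSO and 34 and 36 counts in GSI, a log2 fold change of 1.5 (SE 0.349, FDR = 0.00172). Of the 12 genes of type I and type II ligands and receptors, 6 could be tested, 2 rose (Ifnb1 and Ifna2) and 3 fell, where 40.8% of all genes tested passed in either direction. Those that fell were receptor chains, Ifngr1 by 0.62, Ifnar1 by 0.36 and Ifnar2 by 0.22 on the log2 scale. Ifnar1 measured 152 and 156 CPM in DMSO and 117 and 123 CPM in GSI.

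Of 6 signal transducers, 1 was higher, 2 were lower and 3 did not pass, a share called near the 40.8% of all genes tested. Stat2, a subunit of ISGF3, rose by 0.37 (SE 0.0744, FDR = 0.000461), from 206 and 201 CPM in DMSO to 279 and 246 CPM in GSI. Irf9 gave 0.14 (FDR = 0.105). Jak2, which serves the IFNγ receptor, fell by 0.52 and Jak1 fell by 0.20.

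Of 11 adaptors, kinases and factors that induce IFN, 2 rose and 4 fell, beside 19.0% and 21.9% of all genes tested, and the number called was 3 in place of 6 without DMSO replicate 1. Irf7, the factor that amplifies IFN production and is itself an IFN-stimulated gene, rose by 0.62 (SE 0.0729, FDR = 9.62e-07), from 797 and 772 CPM in DMSO to 1227 and 1182 CPM in GSI, and the kinase gene Ikbke rose by 0.33. Ticam1, which encodes Trif, fell by 0.68 (SE 0.0737, FDR = 3.01e-07), Ticam2, which encodes Tram, fell by 0.36, Tmem173, which encodes Sting, fell by 0.23 and Irf3 fell by 0.20. Of 6 feedback inhibitors other than Usp18, 1 rose (Socs1, by 0.46) and 1 fell (Pias1, by 0.21 on the log2 scale), a share called near that of all genes tested. The number called could be smaller when a single library was left out.

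**Figure D4:**
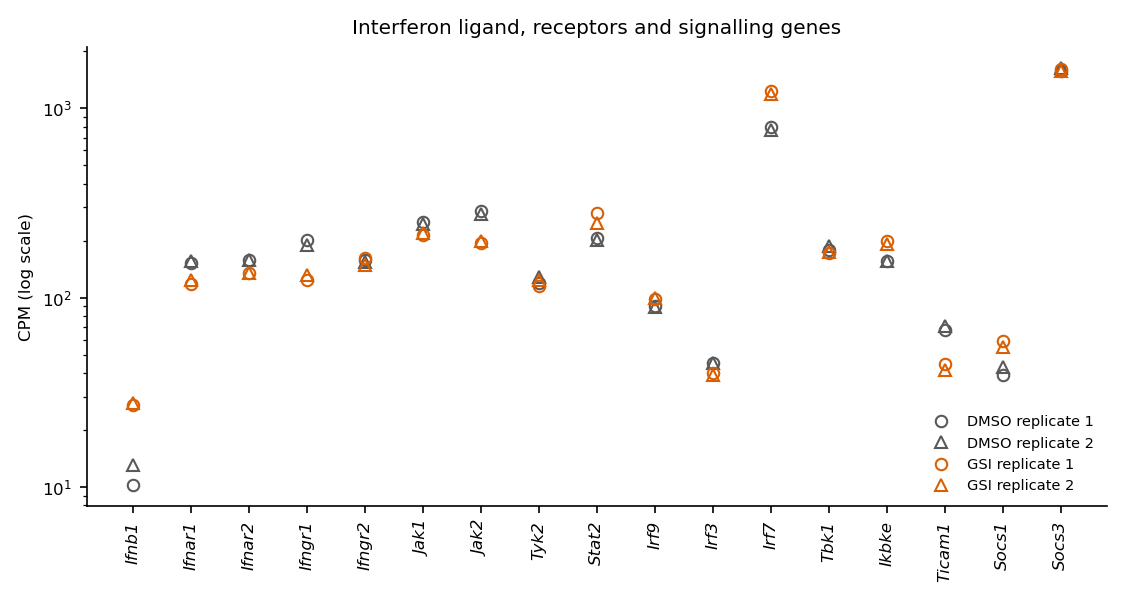
CPM (log axis) of the IFN ligand, its receptors and signaling genes in each library, with circles for replicate 1 and triangles for replicate 2 of DMSO (grey) and GSI (orange). The points of Ifnb1 and Irf7 with GSI lie above those with DMSO and the points of Ifnar1 lie beneath, whereas those of Tyk2 overlap.

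Other genes of the response moved less than the 37 in median. A list of 44 other IFN-stimulated genes, 4 of which are also in the lists of transducers or inducers, had 20 higher, 5 lower and 19 that did not pass, with a median log2 fold change of 0.19 (all genes tested: 19.0% higher and 21.9% lower). Its largest rises were the chemokine gene Cxcl9, with 2101 and 1911 CPM in DMSO and 5623 and 4591 CPM in GSI (1.35), and the Schlafen gene Slfn4, with 22.0 and 27.8 CPM in DMSO and 54.9 and 57.6 CPM in GSI (1.17). Its largest falls were Helz2, by 0.67, and Slfn9, by 0.47 on the log2 scale. Cxcl10 rose by 0.21 (FDR = 0.0256), from 4608 and 4650 CPM to 5342 and 5393 CPM. Close relatives of the 37 genes were also divided: of 16 tested, 7 rose and 3 fell, with a median of 0.20, against the same shares of all genes. Oas1b, which the annotation calls a polymorphic pseudogene, rose by 0.58 and Parp11 by 0.52, whereas the 3 that fell were Ifitm1, Ifit1bl1 and Ifitm2.

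The GTPases of the Gbp and Irg families, which act on vacuoles of bacteria and parasites and respond strongly to IFNγ, had 4 of 15 genes higher, 1 lower and 10 that did not pass, with a median of 0.16. The share called was near the 40.8% of all genes tested in the reported fit. The number called was lower without DMSO replicate 2 and higher with the replicate number as a block. Tgtp1 rose by 0.74 and Gbp6 by 0.38, while Gbp9 fell by 0.19 on the log2 scale. Of 14 early genes of the LPS response that do not need IFN, 2 rose and 4 fell, with a median of −0.02, again a share near the 40.8% of all genes tested. Tnf gave 0.08 (FDR = 0.400), with 7315 and 7691 CPM in DMSO and 8124 and 7783 CPM in GSI, Il1b fell by 1.71 and Dusp1 fell by 0.73, and Egr1 rose by 0.64. The medians of these lists are given beside that of the 37 genes, 0.41, as descriptions, and the difference between lists was not tested.

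**Figure D5:**
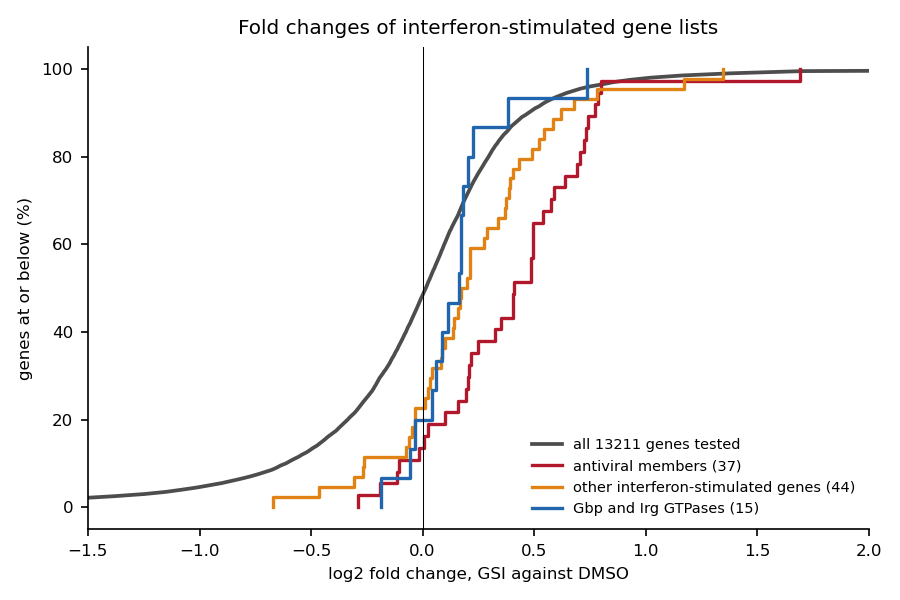
Share of genes (%, y axis) at or below a given log2 fold change (GSI against DMSO, x axis) for the 37 antiviral genes, the 44 other IFN-stimulated genes, the 15 Gbp and Irg GTPases and all 13211 genes tested. The curve of the antiviral genes lies farthest right over most of its length, with its median at 0.41, against 0.19 for the other IFN-stimulated genes, 0.16 for the GTPases and 0.01 for all genes.

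Some markers of cell type moved with the same comparison. Of the 10 macrophage markers, 7 fell, 1 rose and 2 did not pass, with a median log2 fold change of −0.36, where 21.9% of all genes tested fell. Conventional dendritic cell markers, of which Clec9a made up most, summed to 186 and 179 CPM in DMSO and 113 and 115 CPM in GSI. Clec9a itself fell by 0.69 on the log2 scale. The 8 markers of plasmacytoid dendritic cells, a cell type that makes much type I IFN, summed to 62.3 and 62.8 CPM in DMSO and 49.7 and 45.3 CPM in GSI, nearly all of it from Tcf4, and their defining markers Siglech, Ly6d and Klk1 were at 0 in all 4 libraries. Of the 3 of these markers that could be tested, Tcf4 fell by 0.50 on the log2 scale and Cox6a2 rose, from 0.813 and 1.16 CPM in DMSO to 4.53 and 2.88 CPM in GSI (log2 fold change 1.88, SE 0.228, FDR = 1.43e-06). The part of the macrophage and dendritic cell markers in the rise of the antiviral genes was not tested.

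Of the 37 genes, 6 have exon bases across from a gene on the other strand, and reads of overlapping genes can be mixed where strand is not used in counting. The genes across were weak, with at most 286 counts per library for those across from Oasl1, Ifi35, Dhx58 and Eif2ak2, against at least 4833 counts for these members. The gene across from Usp18 was not analysed here. The exception was Dtx3l across from Parp9, which gave −0.03 and had 13853, 17623, 15950 and 14196 counts in DMSO replicates 1 and 2 and GSI replicates 1 and 2, against 19108, 25260, 21766 and 21233 counts of Parp9.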

How the data were processed

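RNA-seq counts of 16 runs (2 groups, 2 replicates each, 4 runs per replicate) were analysed. The authors made stranded poly(A) libraries, aligned reads to the mouse genome with STAR (version 2.5.0a per the submitters' processing notes, which list mm9 and mm10; the paper names mm10) and deposited raw counts per gene from HTSeq, without normalization. The strand and overlap settings of the counting are not given in the sources used here, so reads of near-identical copies and of overlapping genes may be split or lost. The last number in a sample's title was taken as its run. Runs differed by about the sampling noise (chi-square per degree of freedom 1.01 to 1.03) and were summed, giving 4 libraries. 0 columns were left out.

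Genes were tested with edgeR 4.0.16 (R 4.3.3; filterByExpr, TMM, glmQLFit, glmQLFTest, group only), with Benjamini-Hochberg adjustment over 13211 genes (FDR) and a threshold of 0.05. The study's methods name edgeR, a quasi-negative binomial model and this threshold, and the filter, the normalization and the design were chosen here. With 2 libraries a group an SD rests on 1 difference. Nothing in the labels says that replicates came from separate mice, so p-values measure only the spread between these libraries, which may be technical. SE is the size of the log2 fold change divided by the square root of F. CPM used TMM-adjusted library sizes, and CPM per kb divides by the exon length in GENCODE M21. Intervals of shares and limits for a count of 0 (3 counts) cover counting error only.

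The genes, role groups and lists were chosen with earlier results of these data known. Values per library were given for the 6 members with the largest rise and those that fell among genes past the FDR threshold with groups apart, for the 5 with the highest CPM per kb, for Ifnb1, Ifnar1, Stat2, Irf7, Cxcl10, Tnf and Hes1, and log2 fold changes for the 2 largest changes in each direction of other lists. Not every gene that this rule gives is printed, and values per library of Ifit1, Oas1a, Usp18, Ddx58, Ifna2, Cxcl9, Slfn4, Cox6a2, Samhd1, Dtx3l and Parp9, the values of Ube2l6, Uba7, Ifitm2, Ifitm6, Ifit1bl2, Tmem173 and Irf3 and the sums of near-identical pairs were added after the values were seen. Scripts were tested on simulated data. Alternatives were other normalization factors (RLE, none), DESeq2 1.42.0, other filters on low counts (more than 1 CPM in at least 2 libraries was added after the data were seen), the replicate number as a block, 16 runs as separate samples, and each library left out. One gene of the transducer list is not reported here.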

Additional observations from a re-analysis of the deposited data

How the results depend on the processing

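Of 444 values of single genes (37 genes under 12 alternatives), 416 kept their direction and their side of the threshold and 6 changed sign, all of them in genes near 0 that passed in neither fit. These were Mndal (−0.0012 with RLE factors, −0.0018 without normalization factors, and −0.054 to 0.064 without 1 library), Samd9l (−0.036 to 0.082 without 1 library) and Parp9 (−0.048 to 0.019 without 1 library). Of the 28 genes that rose, 23 passed in every fit, and the other 5 (Dhx58, Zbp1, Trim30a, Lgals3bp and Herc6) were lost only when 1 library was left out, with its lone partner assumed to vary like the other group. Leaving out 1 library gave 23 to 27 genes higher, 1 to 2 lower and a median log2 fold change of 0.38 to 0.45. Requiring an absolute log2 fold change above 1.5 as well left 1 of 30 genes. Entering the 16 runs as separate samples, which treats runs of 1 library as replicates, gave 34 genes called, 4 of them lower. The replicate number as a block added Rtp4 (FDR = 0.0354), for 31 genes called, and raised the calls among the Gbp and Irg GTPases from 5 to 9, against 11 with 16 runs and 2 to 6 without 1 library. Labels do not say that equal replicate numbers mark shared cells, and with only 2 numbers the pairing could not be settled: deviations of same-numbered libraries correlated at 0.155 over all genes tested and at 0.455 over the 37 genes. Calls without 1 library were 3 to 6 of 11 for the IFN inducers and 1 to 2 of 6 for the feedback inhibitors. The longer ISRE form in place of the core was found in 33.3% of the 27 genes with a promoter window. That is below the interval of the core's share, 40.7% to 75.5%. With only the 250 bases before the start, the core was found in 44.4% of the 27, against 3.46% of all genes. Over all genes, DESeq2 called 4063 genes against 5392, and leaving out a library gave 4162 to 4978. Depth did not limit the members, whose lowest count was 470.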

Other observations

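Several IFN-stimulated genes outside the set also passed the test, as did 40.8% of all genes tested in either direction. Of the Schlafen genes, which restrict viral translation and lymphocyte growth, Slfn4 and Slfn1 rose, by 1.17 and 0.49 on the log2 scale, whereas Slfn9 and Slfn5 fell by 0.47 and 0.26. The PHD finger genes Phf11a and Phf11d both rose, by 0.39 and 0.52, and Trim30d, a neighbour of Trim30a, rose by 0.44. Samhd1, which depletes nucleotides and so limits retroviruses, fell by 0.27, from 3474 and 3398 CPM in DMSO to 2911 and 2800 CPM in GSI. Cxcl11, which the annotation calls a polymorphic pseudogene, rose by 0.78 with its neighbours Cxcl9 and Cxcl10. Of the 3794 exon bases of Cxcl11, 1582 lie across from a gene on the other strand. The genes of this paragraph were picked for naming after their values were seen, and relatives such as Phf11b and Slfn8 are not given.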
